A study of Mus musculus with 18 samples.

Results

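The genes described here encode the enzymes, carriers and regulators that bring pyruvate into the citrate cycle and run most of its steps. They are 31 genes: the subunits of the pyruvate dehydrogenase complex, its kinases and phosphatases, the mitochondrial pyruvate carrier, citrate synthase, the oxoglutarate dehydrogenase complex, succinate-CoA ligase, succinate dehydrogenase, fumarase, the malate dehydrogenases, and enzymes that feed or drain the cycle. Members were taken from a list of gene symbols, matched by Ensembl identifier, and kept with at least 10 counts in at least 3 libraries. All 31 passed that rule, among 15914 of the 49315 genes in the tables, and all 31 were among the 15778 genes tested. The study sequenced RNA from the mid wall of the left ventricle, taken from male mice of 129SVE background. KO mice carried a knockout of the muscle LIM protein (MLP, encoded by Csrp3), a Z-disc and nuclear protein of striated muscle whose loss is a mouse model of dilated cardiomyopathy, and WT mice were wild type. Each genotype was sampled at 3, 6 and 10 weeks of age with 3 libraries per group, 18 in all. The labels do not say whether the 3 libraries of a group came from separate animals, so p-values measure the spread between these libraries.

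The heart makes most of its ATP in mitochondria, and the citrate cycle is where carbon from glucose, lactate, fatty acids, ketones and amino acids is oxidised to load electron carriers for the respiratory chain. Pyruvate enters through a carrier in the inner membrane and is committed to oxidation by the pyruvate dehydrogenase complex, which kinases switch off by phosphorylation and phosphatases switch on again. Succinate dehydrogenase belongs both to the cycle and to the respiratory chain, and pyruvate carboxylase and the malic enzymes exchange carbon between pyruvate and the cycle's four-carbon acids. Levels below are CPM, counts scaled to library size after TMM normalisation. Only where genes are compared with each other are they given per kilobase of exon (RPKM). A gene is called higher or lower at a Benjamini-Hochberg adjusted p under 0.05 in edgeR's quasi-likelihood test, adjusted over all 15778 genes.

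Library totals ran from 14980968 to 23001047 counts. Transcripts of Csrp3 were not lower in KO: they stood at 1005, 951 and 1111 CPM in WT against 1134, 2703 and 1510.1 CPM in KO at 3 weeks, at 1486, 1229.7 and 1392 CPM in WT against 2483, 1821 and 1792 CPM in KO at 6 weeks, and at 1001, 1124 and 1018 CPM in WT against 2777, 3416 and 1501 CPM in KO at 10 weeks, where they were higher in KO (log2 fold change 1.29, adjusted p = 0.00410). Which part of the gene the allele removes is not given in the sources used here, so the gene's count does not check the labels, and the genotypes are as labelled. The 3 knockout libraries KO 3-week replicate 3, KO 6-week replicate 3 and KO 10-week replicate 1 stood apart: Myl7, Myl4 and Sln, which mark atrial muscle, summed to between 247 and 2288 CPM in them and to between 2.23 and 43.9 CPM in the other 15 libraries. These 3 of the 5 atrial markers were chosen after their values were seen. Of the other 2, Bmp10, a defining atrial marker, was at 0 in 16 of the 18 libraries, and Nppa, which stressed ventricle also expresses, did not set these libraries apart: at 10 weeks it was lowest in KO replicate 1, at 10308 CPM against 17428 and 13596 in the other KO libraries. The 5 adipocyte markers summed to 32.2 CPM in KO 6-week replicate 3 and 56.1 CPM in KO 10-week replicate 1. The 6 ventricular cardiomyocyte markers summed to between 51249 and 77398 CPM in WT and to between 64411 and 82039 CPM in KO. The share of mitochondrially encoded transcripts in a library averaged 15.2% for WT against 9.47% for KO at 3 weeks, 12.0% against 9.51% at 6 weeks, and 14.1% against 8.37% at 10 weeks.

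Many of these genes were lower in KO hearts, and at 6 weeks most of them were. At 3 weeks 11 of the 31 were lower and 0 were higher, where 15.3% of all genes tested were called, 6.68% lower and 8.65% higher. At that age 2 members, Pdk1 and Pdk3, were higher in edgeR at an unadjusted p under 0.05, and 0 passed as higher with limma voom and 1 with DESeq2. At 6 weeks 22 were lower and 3 higher, where 23.8% of all genes were called, 12.8% lower and 11% higher. At 10 weeks 16 were lower and 2 higher, where 29.3% of all genes were called, 14.7% lower and 14.6% higher. The median log2 fold change of the 31 was -0.24, -0.56 and -0.30 at the 3 ages, beside 0.00, 0.00 and -0.03 over all genes. On leaving out each of the 6 libraries of a comparison in turn, 4 of the 11 calls held throughout at 3 weeks, 20 of the 25 at 6 weeks and 12 of the 18 at 10 weeks. The 3 KO values lay below all 3 WT values for 16, 23 and 20 members at 3, 6 and 10 weeks, where 14.9%, 22.2% and 21.4% of all genes did so. They lay above all 3 WT values for 1, 5 and 2 members, where 15.7%, 21.9% and 19.2% of all genes did so.

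**Figure D1:**
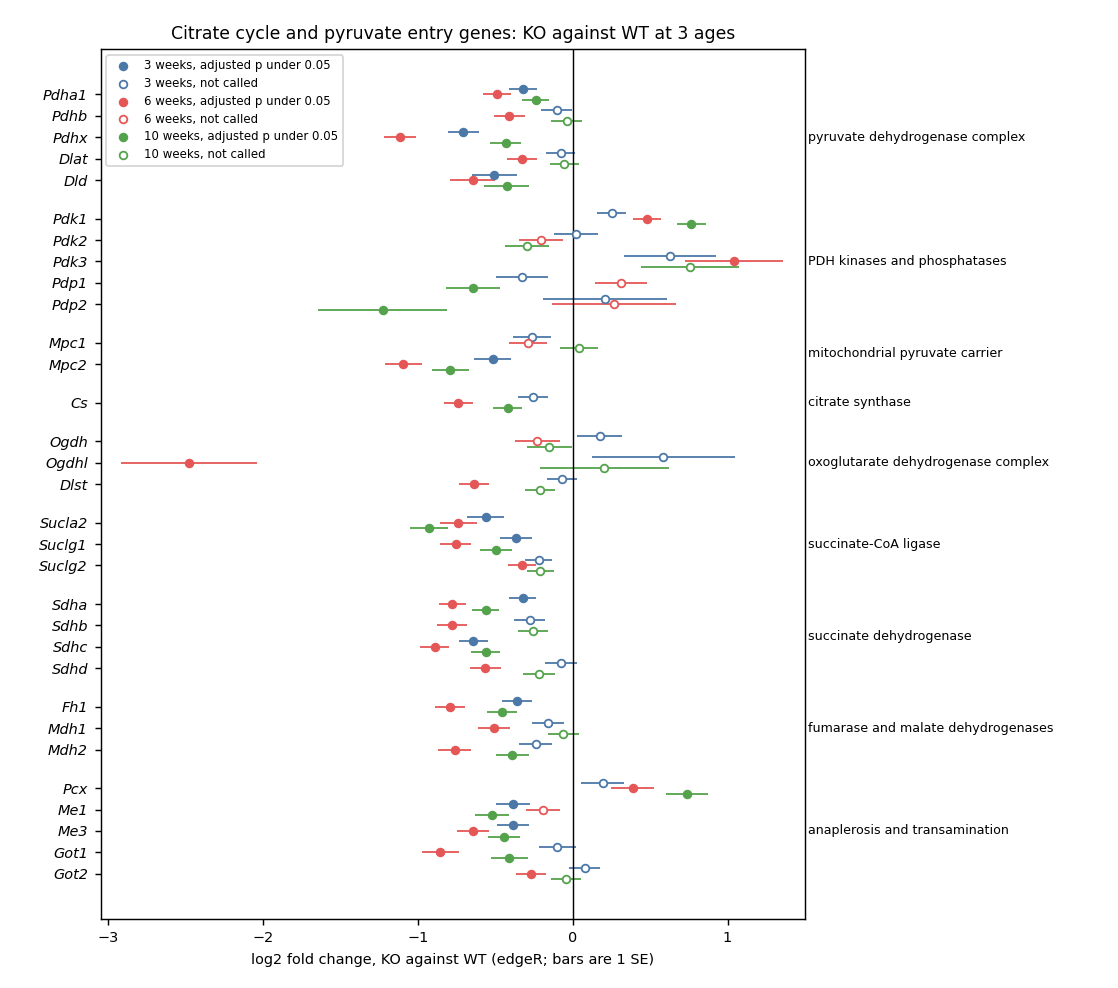
Log2 fold change of KO against WT (x axis, edgeR, bars 1 SE) for the 31 genes (y axis, grouped by role) at 3, 6 and 10 weeks, 3 libraries per group. Filled points passed an adjusted p of 0.05. Most filled points lie left of 0, and those right of 0 belong to Pdk1, Pdk3 and Pcx.

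The genes lower at all 3 ages numbered 10: Pdha1, Pdhx, Dld, Mpc2, Sucla2, Suclg1, Sdha, Sdhc, Fh1 and Me3. Of all genes tested, 2.97% were lower at all 3 ages. Another 6 members were called at 2 ages and 12 at 1 age. The 3 called at no age were Pdk2, Mpc1 and Ogdh. Each comparison uses the WT libraries of its own age. Summed over the 31 genes, the level was 17707 ± 549 CPM in WT and 15567 ± 1040 in KO at 3 weeks, 20117 ± 954 and 13716 ± 47.2 at 6 weeks, and 19570 ± 1087 and 16220 ± 632 at 10 weeks (mean ± SD, n = 3). Fewer cardiomyocytes and less of these RNAs per cardiomyocyte cannot be told apart in RNA from whole tissue. Of the 6 cardiomyocyte markers, 3 were higher and 0 lower in KO at 3 weeks, 1 higher and 2 lower at 6 weeks, and 1 higher and 1 lower at 10 weeks. Fibroblast markers summed to 1339 to 1466 CPM in WT and 1508 to 1869 in KO at 3 weeks, 794 to 882 and 1277 to 1799 at 6 weeks, and 694 to 772 and 890.4 to 996 at 10 weeks. Of those 6 markers, 1, 5 and 1 were higher in KO at the 3 ages, and 1 was lower at 3 weeks. Endothelial markers summed to 1087 to 1259 CPM in WT and 863 to 1168 in KO at 3 weeks, 1024 to 1051 and 678 to 841 at 6 weeks, and 1038 to 1336 and 836 to 969 at 10 weeks. Of the 5, 1 was lower in KO at 6 weeks and 2 at 10 weeks. Macrophage markers summed to 153 to 174 CPM in WT and 153 to 165 in KO at 3 weeks, 139 to 154 and 114 to 143 at 6 weeks, and 116 to 121 and 87.6 to 98.8 at 10 weeks, where 2 of the 5 were lower in KO. The endothelial sums at 6 and 10 weeks and the macrophage sums at 10 weeks did not overlap between genotypes and were lower in KO, as were those of the skeletal muscle list at all 3 ages, which are almost wholly Ckm, a creatine kinase that the heart also expresses. Red cell sums were lower in KO without overlap at 3 weeks (959.9 to 1716 CPM in WT and 422 to 913 in KO) and overlapped at 6 and 10 weeks. Mural sums overlapped at all 3 ages, while 1, 1 and 2 of the 5 mural markers were higher in KO and 1 was lower at 10 weeks. The part of these cell markers and of the mitochondrial share in the results was not tested. Without the 3 libraries that stood apart, 10, 21 and 13 members were called at 3, 6 and 10 weeks in place of 11, 25 and 18. That fit holds fewer KO libraries at each age for every gene, so the drop is not read as a result about the members.

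**Figure D2:**
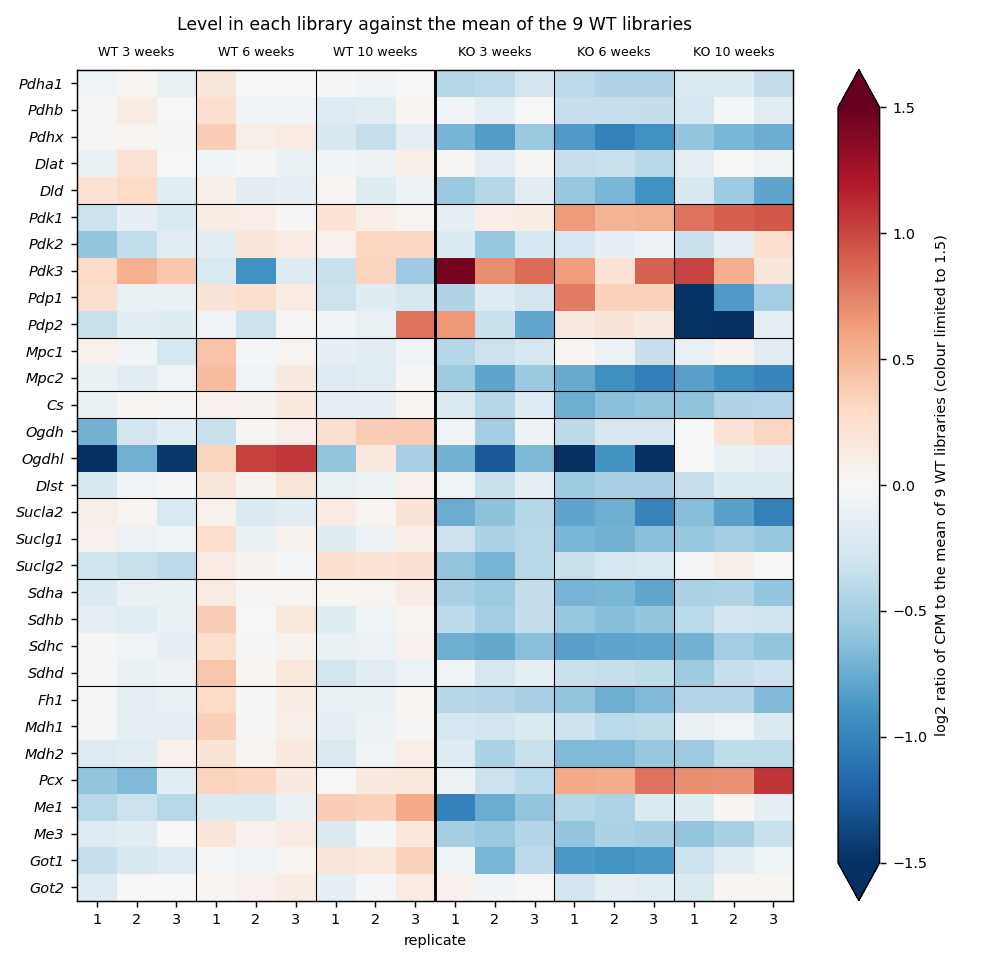
Level of each of the 31 genes (rows, by role) in each of the 18 libraries (columns, by group and replicate) as the log2 ratio of its CPM, plus a pseudocount of 0.05, to its mean over the 9 WT libraries. Blue is lower and red higher, with colour limited to 1.5. KO columns at 6 weeks are blue for most genes, while Pdk1 and Pcx are red in KO at 6 and 10 weeks.

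The pyruvate dehydrogenase complex converts pyruvate to acetyl-CoA, and all 5 of its subunit genes were lower in KO at 6 weeks. At 3 and at 10 weeks 3 of the 5 were lower (Pdha1, Pdhx and Dld). Pdhx (ENSMUSG00000010914, chromosome 2, 103021075 to 103073513, GRCm38), which anchors the E3 enzyme to the complex's core, had the lowest log2 fold change of the 5 at each age, although at 10 weeks it and Dld were both at -0.43. Pdhx stood at 174, 177 and 169 CPM in WT against 106, 96.1 and 117 CPM in KO at 3 weeks (log2 fold change -0.71, SE 0.10, adjusted p = 4.87e-05). At 6 weeks Pdhx stood at 221, 182 and 186 CPM in WT against 95.0, 85.3 and 91.8 CPM in KO (log2 fold change -1.12, SE 0.10, adjusted p = 6.19e-08). At 10 weeks Pdhx stood at 146, 135 and 156 CPM in WT against 114, 107 and 102 CPM in KO (log2 fold change -0.43, SE 0.10, adjusted p = 0.00229). The groups did not overlap at any age, and the WT level at 10 weeks was itself lower than at 6 weeks. Dld, the E3 enzyme that the complex shares with oxoglutarate dehydrogenase, stood at 477, 407 and 415 CPM in WT against 306, 282 and 242 CPM in KO at 6 weeks (log2 fold change -0.65, SE 0.14, adjusted p = 0.00208). Its KO value in replicate 3 at 3 weeks, 405 CPM, reached the lowest WT value, 404 CPM, so the groups overlapped at that age (log2 fold change -0.51, SE 0.14, adjusted p = 0.0198).

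Pdha1, the catalytic E1 alpha subunit on the X chromosome, stood at 1408, 1261 and 1265 CPM in WT against 959.8, 921 and 918 CPM in KO at 6 weeks (log2 fold change -0.49, SE 0.09, adjusted p = 3.12e-04), with no overlap. At 3 weeks Pdha1 was lower by a smaller difference (log2 fold change -0.32, SE 0.09, adjusted p = 0.0176) and at 10 weeks by the smallest (log2 fold change -0.24, SE 0.09, adjusted p = 0.0464). The 10-week call was lost on leaving out any 1 of the 6 libraries (adjusted p from 0.0881 to 0.223). The 3-week call was lost without WT replicate 2 (adjusted p = 0.0776), KO replicate 1 (adjusted p = 0.0686) or KO replicate 2 (adjusted p = 0.0580). The Dld call was lost at 3 weeks without WT replicate 1 (adjusted p = 0.0859), WT replicate 2 (adjusted p = 0.101), KO replicate 1 (adjusted p = 0.0862) or KO replicate 2 (adjusted p = 0.0680), and at 10 weeks without WT replicate 1 (adjusted p = 0.103), WT replicate 3 (adjusted p = 0.0754), KO replicate 2 (adjusted p = 0.0989) or KO replicate 3 (adjusted p = 0.163). Pdhb, the E1 beta subunit, and Dlat, the E2 core that carries the acetyl group, passed the test at 6 weeks (log2 fold changes -0.41 and -0.33, adjusted p = 0.00447 and 0.0162). At 3 and 10 weeks their log2 fold changes were -0.10 and -0.04 for Pdhb, and -0.08 and -0.05 for Dlat. Their change in genotype effect between ages did not pass the test. The Dlat call at 6 weeks was lost without WT replicate 2 (adjusted p = 0.0570), KO replicate 1 (adjusted p = 0.0515) or KO replicate 3 (adjusted p = 0.0699).

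Among the enzymes that switch the complex off and on, the kinase Pdk1 was higher in KO at 6 and 10 weeks. Pdk1 (ENSMUSG00000006494, chromosome 2, 71873224 to 71903858) stood at 115, 131 and 122 CPM in WT against 131, 153 and 154 CPM in KO at 3 weeks (log2 fold change 0.25, SE 0.09, adjusted p = 0.0720), which did not pass the test. At 6 weeks Pdk1 stood at 154, 154 and 145 CPM in WT against 222, 203 and 206 CPM in KO (log2 fold change 0.48, SE 0.09, adjusted p = 5.68e-04). At 10 weeks Pdk1 stood at 165, 153 and 147 CPM in WT against 252, 267 and 272 CPM in KO (log2 fold change 0.77, SE 0.09, adjusted p = 2.28e-06). The lowest KO library lay above the highest WT library at 6 and at 10 weeks. The genotype effect at 10 weeks exceeded that at 3 weeks by 0.51 on the log2 scale (SE 0.13, adjusted p = 0.0226), a call lost on leaving out any of 4 of the 12 libraries (adjusted p up to 0.0708). Pdk2, the kinase with the highest level per exon length of the 3 members, had log2 fold changes of 0.02, -0.21 and -0.30 and was called at no age. In WT at 6 weeks Pdk2 stood at 115 RPKM, Pdk1 at 19.4 and Pdk3 at 0.528.

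Pdk3 was near the lower end of detection, at 21 counts or more in each library. It stood at 1.54, 0.940 and 1.57 CPM in WT against 2.82, 2.11 and 3.38 CPM in KO at 6 weeks (log2 fold change 1.04, SE 0.32, adjusted p = 0.0199), with every KO value above every WT value. The call was lost without WT replicate 2 (adjusted p = 0.102) or KO replicate 3 (adjusted p = 0.0938), and without the 3 libraries that stood apart (adjusted p = 0.0765). The phosphatase Pdp1 was the only one of the 5 regulators for which a change of the genotype effect from 6 to 10 weeks passed the test. Pdp1 stood at 40.7, 42.7 and 38.6 CPM in WT against 60.9, 45.2 and 45.1 CPM in KO at 6 weeks (log2 fold change 0.31, SE 0.17, adjusted p = 0.201). By 10 weeks Pdp1 stood at 28.4, 31.4 and 30.2 CPM in WT against 12.8, 19.7 and 24.7 CPM in KO (log2 fold change -0.64, SE 0.17, adjusted p = 0.00765). The KO values lay above the WT values at 6 weeks, where the test was not passed, and below them at 10 weeks. At 3 weeks all KO values also lay below all WT values (log2 fold change -0.33), without passing the test. The difference between the 2 effects was -0.95 on the log2 scale (SE 0.24, adjusted p = 0.0236), a call lost on leaving out any of 6 of the 12 libraries (adjusted p up to 0.0638). The 10-week call was lost without KO replicate 1 (adjusted p = 0.0563), one of the libraries that stood apart. The other phosphatase, Pdp2, stood at 22.1, 18.3 and 23.1 CPM in WT against 25.2, 26.1 and 25.0 CPM in KO at 6 weeks (log2 fold change 0.27, SE 0.40, adjusted p = 0.691), with every KO value above every WT value but short of the test. At 10 weeks Pdp2 stood at 22.2, 21.2 and 40.4 CPM in WT against 8.14, 6.77 and 20.6 CPM in KO (log2 fold change -1.23, SE 0.41, adjusted p = 0.0392). KO was then lower without overlap, but KO replicate 3 lay within 1 CPM of the lowest WT library, and the call was lost without WT replicate 3 (adjusted p = 0.172), KO replicate 1 (adjusted p = 0.143) or KO replicate 2 (adjusted p = 0.152).

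**Figure D3:**
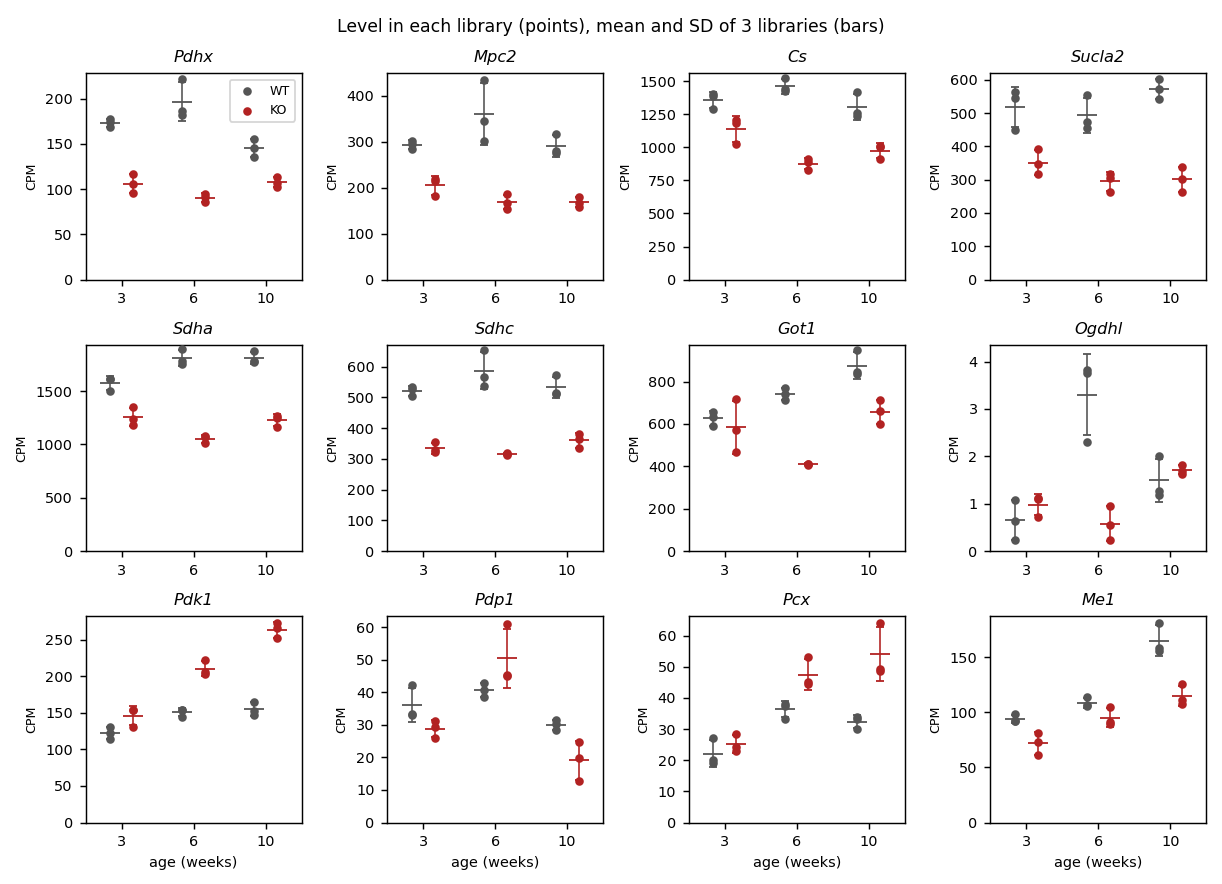
CPM of 12 of the genes (y axis, from 0) by age in weeks (x axis) in WT and KO. Points are libraries and bars the mean and SD of 3. KO libraries lie below WT libraries at every age for Pdhx, Mpc2, Cs, Sucla2, Sdha, Sdhc and Me1, and above them at 6 and 10 weeks for Pdk1 and Pcx.

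The mitochondrial pyruvate carrier is built from MPC1 and MPC2, and Mpc2 was lower in KO at all 3 ages while Mpc1 passed the test at none. Mpc2 (ENSMUSG00000026568, chromosome 1, 165460637 to 165481214) stood at 295, 283 and 302 CPM in WT against 218, 182 and 215 CPM in KO at 3 weeks (log2 fold change -0.52, SE 0.12, adjusted p = 0.00501). At 6 weeks Mpc2 stood at 435, 303 and 346 CPM in WT against 186, 166 and 155 CPM in KO (log2 fold change -1.10, SE 0.12, adjusted p = 8.37e-07). At 10 weeks Mpc2 stood at 275, 280.0 and 318 CPM in WT against 179.7, 167 and 158 CPM in KO (log2 fold change -0.79, SE 0.12, adjusted p = 3.57e-05). All KO libraries were below all WT libraries at each age, and WT 6-week replicate 1 was the highest of the 18. That library was the highest of its group for 19 of the 31 members. Mpc1 stood at 304, 224 and 234 CPM in WT against 232, 213 and 178 CPM in KO at 6 weeks (log2 fold change -0.29, SE 0.12, adjusted p = 0.0925), with overlapping groups, and its log2 fold change was 0.04 at 10 weeks. Exons of Mpc1 overlap those of another annotated gene. The difference between Mpc1 and Mpc2 was not tested.

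Citrate synthase, which joins acetyl-CoA to oxaloacetate and is often used as a measure of mitochondrial content, was lower in KO at 6 and 10 weeks. Cs (ENSMUSG00000005683, chromosome 10, 128337832 to 128362479) stood at 1285, 1400.3 and 1387 CPM in WT against 1187, 1022 and 1203 CPM in KO at 3 weeks, without overlap but short of the test (log2 fold change -0.26, SE 0.10, adjusted p = 0.0753). At 6 weeks Cs stood at 1437, 1422 and 1524 CPM in WT against 829.6, 888 and 910.0 CPM in KO (log2 fold change -0.74, SE 0.10, adjusted p = 7.31e-06). At 10 weeks Cs stood at 1236, 1256 and 1414 CPM in WT against 908, 1001 and 1009 CPM in KO (log2 fold change -0.42, SE 0.10, adjusted p = 0.00197). The highest KO library remained below the lowest WT library at both of these ages.

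The oxoglutarate dehydrogenase complex, the cycle's second carbon dioxide-releasing step, was lower in KO at 6 weeks in 2 of its 3 member genes, Ogdhl and Dlst. Ogdh, the E1 subunit, was called at no age. Its values at 6 weeks were 1714, 2196 and 2319 CPM in WT against 1643, 1833 and 1835 CPM in KO (log2 fold change -0.23, SE 0.15, adjusted p = 0.284), and the groups overlapped. Dlst, the E2 subunit, stood at 850.4, 785 and 860.3 CPM in WT against 519.9, 540.4 and 543 CPM in KO at 6 weeks (log2 fold change -0.64, SE 0.10, adjusted p = 4.65e-05) without overlap, and had log2 fold changes of -0.07 and -0.21 at 3 and 10 weeks. Between 3 and 6 weeks the genotype effect on Dlst moved by -0.57 (SE 0.14, adjusted p = 0.0360). That call was lost on leaving out any of 9 of the 12 libraries (adjusted p up to 0.119) and without the 3 libraries that stood apart (0.115).

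Ogdhl, an E1 form known mainly from brain, had the lowest level per exon length of the 31 genes over the WT groups (0.526 RPKM, mean of the 3 group means). In WT at 6 weeks it stood at 0.957 RPKM against 380.5 for Ogdh, and single libraries held from 4 to 88 of its counts. It stood at 0.243, 1.09 and 0.633 CPM in WT at 3 weeks, 2.31, 3.76 and 3.83 CPM at 6 weeks and 1.18, 2.02 and 1.28 CPM at 10 weeks. In KO the values were 1.09, 0.728 and 1.12 CPM at 3 weeks, 0.230, 0.954 and 0.554 CPM at 6 weeks and 1.82, 1.69 and 1.63 CPM at 10 weeks. Ogdhl rose in WT from 3 to 6 weeks (log2 fold change 2.32, adjusted p = 0.00399), and at 6 weeks KO was lower (log2 fold change -2.48, SE 0.44, adjusted p = 2.46e-04) with no overlap. The change of the genotype effect from 3 to 6 weeks was -3.06 (adjusted p = 0.0167), and the call was lost without WT 6-week replicate 3 (adjusted p = 0.0559) and without the 3 libraries that stood apart (0.0683). From 6 to 10 weeks the effect moved by 2.68 (adjusted p = 0.0118). The log2 fold changes of Ogdhl at 3 and 10 weeks were 0.58 and 0.20, and neither passed the test.

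Succinate-CoA ligase, which makes ATP or GTP at the level of the cycle, pairs 1 shared alpha subunit (Suclg1) with an ATP-forming (Sucla2) or a GTP-forming (Suclg2) beta subunit. Sucla2 (ENSMUSG00000022110, chromosome 14, 73525319 to 73596142) and Suclg1 were lower in KO at all 3 ages and Suclg2 at 6 weeks. Sucla2 stood at 563, 544 and 450.3 CPM in WT against 316, 346 and 392 CPM in KO at 3 weeks (log2 fold change -0.56, SE 0.12, adjusted p = 0.00271). At 6 weeks Sucla2 stood at 553, 454 and 472 CPM in WT against 305, 317 and 263 CPM in KO (log2 fold change -0.74, SE 0.12, adjusted p = 1.00e-04). At 10 weeks Sucla2 stood at 574, 541 and 602 CPM in WT against 339, 301 and 262 CPM in KO (log2 fold change -0.93, SE 0.12, adjusted p = 5.51e-06). No KO library reached a WT library at any age. For Suclg1 the values at 6 weeks were 405, 314 and 348 CPM in WT against 209, 205 and 217 CPM in KO (log2 fold change -0.76, SE 0.10, adjusted p = 1.06e-05), again without overlap. Suclg1 had log2 fold changes of -0.37 at 3 weeks and -0.50 at 10 weeks (adjusted p = 0.0168 and 7.71e-04). Its 3-week call was lost without WT replicate 1 (adjusted p = 0.0885) or KO replicate 2 (adjusted p = 0.0720), and without the 3 libraries that stood apart (0.0511). Suclg2 stood at 169.7, 163 and 153 CPM in WT against 124, 129.8 and 133 CPM in KO at 6 weeks (log2 fold change -0.33, SE 0.09, adjusted p = 0.00938). That call was lost without WT replicate 1 (adjusted p = 0.0534) or KO replicate 1 (adjusted p = 0.0620). In both genotypes Suclg2 rose from 3 to 6 weeks, by 0.39 in WT and 0.29 in KO on the log2 scale (adjusted p = 0.0135 and 0.0397). The WT rise was lost without WT 3-week replicate 2 (adjusted p = 0.0639) or WT 6-week replicate 1 (adjusted p = 0.0819), and the KO rise on leaving out any of 5 of the 6 libraries (adjusted p up to 0.173).

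Succinate dehydrogenase oxidises succinate and passes the electrons to ubiquinone. Its flavoprotein Sdha (ENSMUSG00000021577, chromosome 13, 74322254 to 74350280), iron-sulfur subunit Sdhb and membrane anchors Sdhc and Sdhd were all lower in KO at 6 weeks, and Sdha and Sdhc also at 3 and 10 weeks. Sdha stood at 1503, 1615 and 1609 CPM in WT against 1240.3, 1186 and 1351 CPM in KO at 3 weeks (log2 fold change -0.32, SE 0.09, adjusted p = 0.0158). At 6 weeks Sdha stood at 1890.3, 1749.6 and 1783 CPM in WT against 1072, 1079 and 1010.2 CPM in KO (log2 fold change -0.78, SE 0.09, adjusted p = 1.37e-06). At 10 weeks Sdha stood at 1772, 1786 and 1871 CPM in WT against 1249, 1268 and 1160.5 CPM in KO (log2 fold change -0.56, SE 0.09, adjusted p = 5.43e-05). The lowest WT library of any age, at 1503 CPM, was above the highest KO library of any age, at 1351 CPM. Sdhc (ENSMUSG00000058076, chromosome 1, 171127165 to 171150603) stood at 535, 527 and 505 CPM in WT against 328, 322 and 354 CPM in KO at 3 weeks (log2 fold change -0.64, SE 0.09, adjusted p = 6.54e-05). At 6 weeks Sdhc stood at 655, 539 and 567 CPM in WT against 312, 317 and 319.6 CPM in KO (log2 fold change -0.89, SE 0.09, adjusted p = 4.78e-07). At 10 weeks Sdhc stood at 512, 514 and 573 CPM in WT against 335, 382 and 364 CPM in KO (log2 fold change -0.56, SE 0.09, adjusted p = 9.69e-05), and the groups were apart at all 3 ages. The Sdha call at 3 weeks was lost without WT replicate 2 (adjusted p = 0.0563) or KO replicate 2 (adjusted p = 0.0716).

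Sdhb stood at 1219, 941 and 1049 CPM in WT against 636, 605 and 629 CPM in KO at 6 weeks (log2 fold change -0.78, SE 0.10, adjusted p = 5.72e-06). At 3 and 10 weeks Sdhb was below WT in every KO library but short of the test (log2 fold changes -0.28 and -0.26, adjusted p = 0.0604 and 0.0547). Its genotype effect was less negative at 10 than at 6 weeks by 0.52 (SE 0.14, adjusted p = 0.0313), a call lost on leaving out any of 7 of the 12 libraries (adjusted p up to 0.0902). Sdhd stood at 484, 372 and 406 CPM in WT against 288, 285 and 279.6 CPM in KO at 6 weeks (log2 fold change -0.56, SE 0.10, adjusted p = 3.16e-04), without overlap, and its log2 fold changes at 3 and 10 weeks were -0.08 and -0.22.

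The promoters of the members were searched for short motifs, and the NRF1 sites are printed because they fell in 3 members of the cycle. NRF1 is a transcription factor known to bind promoters of nuclear genes for mitochondrial proteins. RefSeq promoter windows (GRCm38.p6) were found for 29 of the 31 genes, not for Pdp1 and Sdhc, and the 250 bases before each start were searched on both strands. The NRF1 letters, GCGCA then any base (N) then GCGC, were present in Sdha, Sdhd and Sucla2, 10.3% of the 29, and in 4.23% of the 27025 genes with a window. Of the 9 genes lower at all 3 ages that had a window, 2 held these letters, Sdha and Sucla2. In the runs below, 5′ to 3′ on the strand of the gene, capitals mark the match.
Sdha, chr13:74350319-74350348, minus strand: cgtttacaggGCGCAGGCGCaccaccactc
Sdha, chr13:74350276-74350305, minus strand: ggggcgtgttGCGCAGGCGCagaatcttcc
Sdha, chr13:74350231-74350260, minus strand: gcgactcggtGCGCAAGCGCagtctgtcgc
Sdhd, chr9:50603909-50603938, minus strand: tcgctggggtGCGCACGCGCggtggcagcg
Sucla2, chr14:73552759-73552788, plus strand: ctgcgtctctGCGCCTGCGCggtgcccagg
The 3 Sdha matches lie within 98 bases of the RefSeq start, and the first of them overlaps an exon of the neighbouring gene Ccdc127 on GENCODE M21. Of the other 2 Sdha matches, the one nearest the start lies in an annotated exon of Sdha and the middle one in no annotated exon. The Sdhd match overlaps an exon of Timm8b. The Sucla2 match reads on the opposite strand and belongs to a RefSeq start 27467 bases from the 5′ end of the gene in the deposited tables. The E-box CACGTG was present in Ogdh, Pcx, Pdk2 and Pdp2, 13.8% of the 29 genes, beside 6.86% of all genes. The letters TCAAGGTCA (an oestrogen-related receptor site), CCGGAAGT (an ETS or GABPA site) and AANATGGCG (YY1) were in 0 of the 29, and in 0.422%, 3.23% and 1.29% of all genes. No binding was measured here, and with so few members holding a motif the shares are not read as results.

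Fumarase and the malate dehydrogenases complete the cycle from fumarate to oxaloacetate, and all 3 genes were lower in KO at 6 weeks. Fh1 (ENSMUSG00000026526, chromosome 1, 175600374 to 175625635) stood at 521, 483 and 496 CPM in WT against 396, 392 and 382 CPM in KO at 3 weeks (log2 fold change -0.36, SE 0.10, adjusted p = 0.0148). At 6 weeks Fh1 stood at 655, 523 and 576 CPM in WT against 354, 321 and 336 CPM in KO (log2 fold change -0.80, SE 0.10, adjusted p = 3.37e-06). At 10 weeks Fh1 stood at 497, 498 and 545 CPM in WT against 391, 392 and 336 CPM in KO (log2 fold change -0.46, SE 0.10, adjusted p = 0.00103). No KO library reached the WT range at any age, and the 3-week call was lost without WT replicate 1 (adjusted p = 0.0674) or without the 3 libraries that stood apart (0.0524). Mdh2, the mitochondrial malate dehydrogenase, stood at 1486, 1327 and 1431 CPM in WT against 812, 818 and 870.4 CPM in KO at 6 weeks (log2 fold change -0.76, SE 0.11, adjusted p = 1.92e-05) and was lower again at 10 weeks (log2 fold change -0.39, SE 0.11, adjusted p = 0.00837). The 10-week call was lost without WT replicate 3 (adjusted p = 0.0796) or KO replicate 1 (adjusted p = 0.0655). Mdh1, the cytosolic enzyme of the malate-aspartate shuttle, had the highest level per exon length of the 31 genes in WT. It stood at 2623, 1999.7 and 2171 CPM in WT against 1655, 1550.2 and 1567 CPM in KO at 6 weeks (log2 fold change -0.51, SE 0.10, adjusted p = 7.70e-04), while at 10 weeks its log2 fold change was -0.06 and the groups overlapped. Exons of Mdh1 overlap those of Wdpcp, and exons of Pdha1 those of Map3k15, and how reads in both were assigned was not given in the sources used here.

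Of the members that fill, drain or bypass the cycle, pyruvate carboxylase was higher in KO where it passed the test. The malic enzymes Me1 and Me3 and the aspartate aminotransferases were lower where they passed the test. Pcx (ENSMUSG00000024892, chromosome 19, 4510472 to 4621752), which makes oxaloacetate from pyruvate, stood at 20.1, 19.2 and 27.0 CPM in WT against 28.6, 24.2 and 22.8 CPM in KO at 3 weeks (log2 fold change 0.19, SE 0.14, adjusted p = 0.392), with overlapping groups. At 6 weeks Pcx stood at 38.2, 37.5 and 33.4 CPM in WT against 45.0, 44.4 and 53.1 CPM in KO (log2 fold change 0.39, SE 0.14, adjusted p = 0.0449). At 10 weeks Pcx stood at 30.0, 33.3 and 33.8 CPM in WT against 49.2, 48.7 and 64.0 CPM in KO (log2 fold change 0.74, SE 0.14, adjusted p = 3.41e-04). KO libraries were all above WT libraries at 6 and 10 weeks, but the 6-week call was lost on leaving out any 1 of the 6 libraries (adjusted p from 0.0532 to 0.193). Pyruvate carboxylase is abundant in adipocytes. The libraries with adipocyte markers held 53.1 CPM of Pcx at 6 weeks, the highest KO value of that age, and 49.2 CPM at 10 weeks, below the highest. Without the 3 libraries that stood apart the adjusted p at 6 weeks was 0.151, and at 10 weeks it was 2.38e-04. That fit holds fewer KO libraries, and the part of adipocyte RNA in the Pcx difference was not tested.

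Me1, the cytosolic malic enzyme that yields NADPH, stood at 91.7, 98.4 and 92.0 CPM in WT against 60.8, 73.0 and 81.6 CPM in KO at 3 weeks (log2 fold change -0.39, SE 0.11, adjusted p = 0.0190). At 10 weeks Me1 stood at 159, 156 and 181 CPM in WT against 108, 126 and 111 CPM in KO (log2 fold change -0.52, SE 0.11, adjusted p = 9.30e-04). KO libraries were below WT libraries at both ages, and at 6 weeks too, where the test was not passed (log2 fold change -0.19, adjusted p = 0.227). The 3-week call was lost without WT replicate 2 (adjusted p = 0.0736) or KO replicate 1 (adjusted p = 0.110). Me3, a mitochondrial malic enzyme, stood at 97.2, 90.2 and 94.0 CPM in WT against 57.3, 61.7 and 60.8 CPM in KO at 6 weeks (log2 fold change -0.65, SE 0.10, adjusted p = 7.47e-05) and was also lower at 3 and 10 weeks (log2 fold changes -0.39 and -0.45, adjusted p = 0.0131 and 0.00220). Its 3-week call was lost without WT replicate 3 (adjusted p = 0.0509) or KO replicate 2 (adjusted p = 0.0560). Exons of Me1 and of Me3 each overlap an annotated antisense gene, and without the strand setting their reads cannot be told apart.

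Got1, the cytosolic aspartate aminotransferase of the malate-aspartate shuttle, stood at 589, 633 and 656 CPM in WT against 716, 466 and 571 CPM in KO at 3 weeks, where KO replicate 1 was above all WT libraries (log2 fold change -0.10, SE 0.12, adjusted p = 0.628). At 6 weeks Got1 stood at 741, 715 and 771 CPM in WT against 413, 405 and 412 CPM in KO (log2 fold change -0.86, SE 0.12, adjusted p = 1.83e-05). At 10 weeks Got1 stood at 845, 835 and 947 CPM in WT against 599.6, 663 and 712 CPM in KO (log2 fold change -0.41, SE 0.12, adjusted p = 0.0121). The groups were apart at 6 and 10 weeks. The genotype effect moved by -0.76 between 3 and 6 weeks (SE 0.17, adjusted p = 0.0235), a call lost on leaving out any of 8 of the 12 libraries (adjusted p up to 0.0855). The 10-week call was lost without WT replicate 3 (adjusted p = 0.0775) or KO replicate 1 (adjusted p = 0.0862). Got2, its mitochondrial partner, stood at 1045, 1072 and 1109 CPM in WT against 841, 925 and 911 CPM in KO at 6 weeks (log2 fold change -0.27, SE 0.10, adjusted p = 0.0493), without overlap, but the call was lost on leaving out any 1 of the 6 libraries (adjusted p from 0.0774 to 0.205). At 3 and 10 weeks its log2 fold changes were 0.08 and -0.04. Exons of Got2 overlap those of another annotated gene.

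Where 2 members encode alternative forms of 1 activity, their counts were also compared within each library as a log2 ratio, which does not depend on library scaling. The 7 pairs were tested by an exact two-sided permutation of genotype within age (8000 arrangements, smallest possible p 0.00025), with p adjusted over the pairs. The Sucla2 to Suclg2 ratio was lower in KO by 0.49 on average over the ages (exact permutation p = 0.00025, the smallest this test can give, adjusted 0.00175). That log2 ratio was 2.15, 2.14 and 1.92 in WT and 1.61, 1.85 and 1.74 in KO at 3 weeks. By 6 weeks it was 1.70, 1.48 and 1.62 in WT and 1.30, 1.29 and 0.98 in KO. By 10 weeks it was 1.62, 1.59 and 1.71 in WT and 1.14, 0.86 and 0.74 in KO. The genotypes did not overlap at any age, and the difference of the means was -0.34, -0.41 and -0.73. Per exon length Sucla2 remained above Suclg2 in both genotypes, at 144 against 39.7 RPKM in WT and 75.4 against 34.3 RPKM in KO at 10 weeks.

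The Pdk1 to Pdk2 ratio was higher in KO by 0.66 (adjusted exact permutation p = 0.00233). Its values at 10 weeks were -1.15, -1.52 and -1.57 in WT and -0.14, -0.25 and -0.60 in KO, and the genotypes were apart at 6 and 10 weeks but not at 3. The Got1 to Got2 ratio, cytosolic over mitochondrial, was lower in KO by 0.38 (adjusted exact permutation p = 0.00233). Its values at 6 weeks were -0.50, -0.58 and -0.53 in WT and -1.03, -1.19 and -1.15 in KO. For the malate dehydrogenases the cytosolic to mitochondrial ratio moved the other way: Mdh1 to Mdh2 was higher in KO by 0.22 (adjusted exact permutation p = 0.0105), at 0.82, 0.59 and 0.60 in WT and 1.03, 0.92 and 0.85 in KO at 6 weeks. The ratios Me1 to Me3 (0.12), Pdp1 to Pdp2 (0.09) and Ogdhl to Ogdh (-0.47) did not pass (adjusted exact permutation p = 0.268, 0.719 and 0.348). The Me1 to Me3 ratio was apart at 6 weeks, at 0.13, 0.23 and 0.28 in WT and 0.68, 0.53 and 0.79 in KO, and overlapped at the other ages. For Ogdhl to Ogdh the difference was 0.59, -2.40 and 0.40 at 3, 6 and 10 weeks, so its average joins opposite signs. That ratio was lower in KO without overlap at 6 weeks and overlapped at the other ages. For Pdp1 to Pdp2 the difference was -0.40, 0.02 and 0.65, with overlap at each age.

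**Figure D4:**
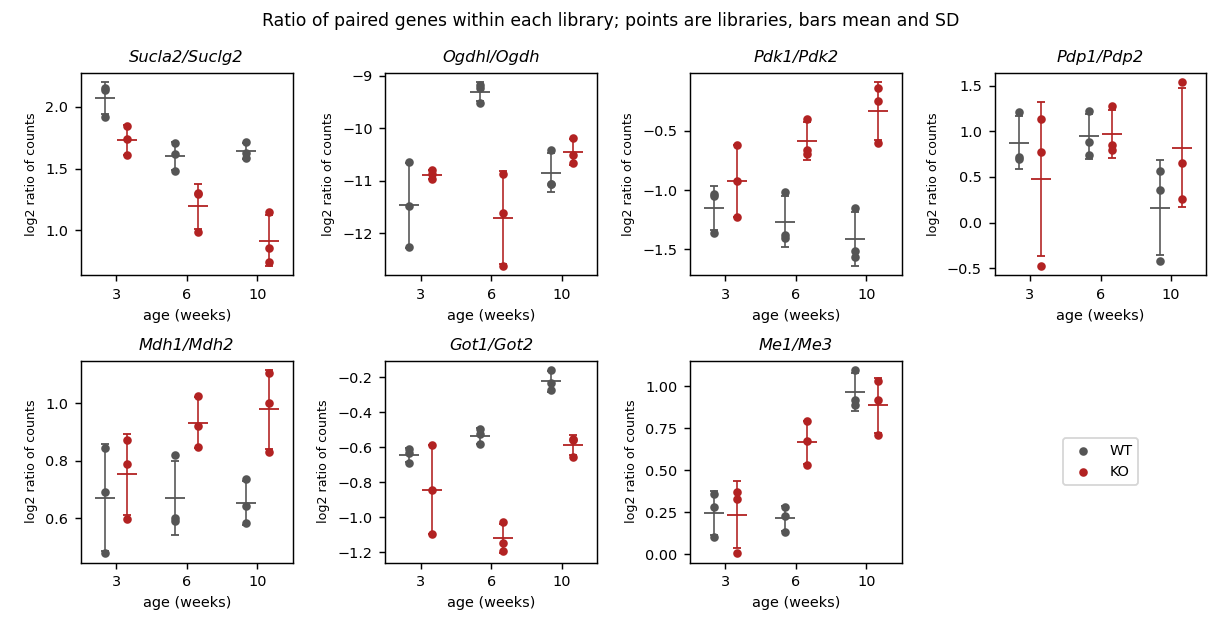
Log2 ratio of counts within a library (y axis, each panel with its own scale that does not start at 0) for 7 pairs of members by age in weeks (x axis), in WT and KO. Points are libraries and bars the mean and SD of 3. Sucla2/Suclg2 is lower in every KO library than in every WT library of its age.

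With age, few of the genes changed in WT. From 3 to 6 weeks 3 rose (Ogdhl, Suclg2 and Pcx), where 5.18% of all genes were called and 2.94% rose. Pcx stood at 20.1, 19.2 and 27.0 CPM at 3 weeks and 38.2, 37.5 and 33.4 CPM at 6 weeks (log2 fold change 0.72, adjusted p = 0.00511). From 6 to 10 weeks Me1 rose (0.60, adjusted p = 0.00142) and Pdhx (-0.43) and Sdhd (-0.39) fell, where 8.77% of all genes were called, 3.64% higher and 5.12% lower. The Pdhx call was lost without WT 6-week replicate 1 (adjusted p = 0.0853) or WT 10-week replicate 2 (adjusted p = 0.0611), and the Sdhd call without WT 6-week replicate 1 (adjusted p = 0.163), WT 6-week replicate 3 (adjusted p = 0.0530), WT 10-week replicate 1 (adjusted p = 0.104) or WT 10-week replicate 2 (adjusted p = 0.0679).

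In KO from 3 to 6 weeks 5 rose (Pdk1, Pdp1, Suclg2, Pcx and Me1) and 4 fell (Dlat, Cs, Dlst and Got1), where 11.6% of all genes were called, 5.34% higher and 6.25% lower. Cs fell from 1187, 1022 and 1203 CPM to 829.6, 888 and 910.0 CPM (log2 fold change -0.38, adjusted p = 0.0124). Pcx rose by 0.91 and Pdp1 by 0.81 on the log2 scale (adjusted p = 1.78e-04 and 0.00337). Without the 3 libraries that stood apart, which leaves fewer KO libraries, 5 members were called, and Dlat, Cs, Dlst and Suclg2 were lost. Of the 9 calls, those of Pdk1, Pdp1 and Pcx held on leaving out each library in turn, and the Cs call was lost without KO 3-week replicate 3 (adjusted p = 0.0648) or KO 6-week replicate 1 (adjusted p = 0.0792). From 6 to 10 weeks 6 rose (Dlat, Pdk1, Ogdh, Ogdhl, Suclg2 and Got1) and 1 fell (Pdp1), where 12.7% of all genes were called, 6.52% higher and 6.14% lower. Got1 rose from 413, 405 and 412 CPM to 599.6, 663 and 712 CPM (0.68, adjusted p = 8.52e-04). Pdp1 fell from 60.9, 45.2 and 45.1 CPM to 12.8, 19.7 and 24.7 CPM (-1.40, adjusted p = 4.57e-05). These 2 of the 7 calls held on leaving out each library in turn.

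The difference between KO and WT itself changed with age for 7 of the 31 genes, and these comparisons share libraries. From 3 to 6 weeks it moved downward for Ogdhl, Dlst and Got1, with a change of sign for Ogdhl, where 1.59% of all genes were called and 1.1% in that direction. Between 6 and 10 weeks it moved upward for Pdhx, Ogdhl and Sdhb and downward for Pdp1. The sign of the estimate changed for Ogdhl and Pdp1. Of all genes 5.75% were called, 3.12% toward higher and 2.63% toward lower. The positive estimates behind these sign changes, Ogdhl at 3 and 10 weeks and Pdp1 at 6 weeks, did not themselves pass the test. From 3 to 10 weeks the difference became more positive for Pdk1, where 5.76% of all genes were called and 2.82% in that direction. For Pdhx the genotype difference was -1.12 at 6 weeks and -0.43 at 10 weeks, a change of 0.68 (SE 0.14, adjusted p = 0.00634). Of the 22 members lower in KO at 6 weeks, all but Sucla2 had their lowest log2 fold change at that age. The 22 were picked by their 6-week call, which favours that outcome, so this count is not support for a 6-week low. Over all 31, the change of the genotype effect was below 0 for 25 from 3 to 6 weeks and for 6 from 6 to 10 weeks. Among all 15778 genes it was below 0 for 8136 and 7840. Of the 22, a change of the effect between ages passed the test for Ogdhl, Dlst, Got1, Pdhx and Sdhb.

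A further 27 genes of the same pathway, among them the aconitases, isocitrate dehydrogenases, lipoylation enzymes and shuttle carriers, were counted in the same way. In KO 1 was higher and 4 lower at 3 weeks, 10 were lower at 6 weeks, and 1 was higher and 8 lower at 10 weeks, with median log2 fold changes of -0.17, -0.30 and -0.24. The share called in either direction was 18.5%, 37.0% and 33.3% at the 3 ages, beside 15.3%, 23.8% and 29.3% of all genes. With the directions pooled, it lay near that of all genes at 3 and 10 weeks. By direction, 4, 10 and 8 of the 27 were lower, where 6.68%, 12.8% and 14.7% of all genes were lower. Higher were 1, 0 and 1 of the 27, where 8.65%, 11% and 14.6% of all genes were higher. Idh2, the mitochondrial NADP-linked isocitrate dehydrogenase, was lower at all 3 ages (log2 fold changes -1.16, -1.79 and -1.17). At 6 weeks Idh2 stood at 2866, 2653 and 2750.3 CPM in WT against 793, 789.9 and 804 CPM in KO (adjusted p = 2.61e-10). Idh3b, a subunit of the NAD-linked enzyme, followed it by p at 6 weeks (-0.76, adjusted p = 8.38e-06), Idh3a, the catalytic subunit, at 10 weeks (-0.56, adjusted p = 5.18e-05) and Lipt1, a lipoyltransferase, at 3 weeks (-0.59, adjusted p = 0.0306). Pdk4, the pyruvate dehydrogenase kinase induced by fasting and fatty acids, stood at 200.2, 343 and 276 CPM in WT against 409.5, 689.9 and 1079.7 CPM in KO at 3 weeks (log2 fold change 1.41, SE 0.43, adjusted p = 0.0430). The Pdk4 and the Lipt1 call were each lost in 5 of 6 fits that left out 1 library (adjusted p up to 0.170 and 0.129). Without the 3 libraries that stood apart the adjusted p was 0.0449 for Pdk4 and 0.0907 for Lipt1. At 6 weeks Pdk4 stood at 184, 191 and 216 CPM in WT against 102, 147 and 214 CPM in KO, with overlapping groups (log2 fold change -0.35, SE 0.42, adjusted p = 0.613). At 10 weeks Pdk4 stood at 726, 547 and 814 CPM in WT against 1363, 749 and 433 CPM in KO, where the KO libraries spanned the WT libraries. Me2, another mitochondrial malic enzyme, was higher in KO at 10 weeks (0.71, adjusted p = 8.54e-04).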

How the data were processed

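RNA from 18 left ventricular samples was sequenced from NEBNext Ultra II libraries, per the labels' protocols. Per the submitters' processing notes, Trimmomatic 0.36, STAR 2.5.2b, featureCounts and Subread 1.5.2 were used with GRCm38. The authors deposited raw counts per Ensembl gene. Which strand setting, annotation release and multimapping rule were applied is not given in the sources used here. Of 49315 identifiers, 49056 matched GENCODE M21, which gave symbols and exon overlaps.

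Counts were fitted in R 4.3.3 with edgeR 4.0.16 (filterByExpr, minimum count 10 and total 15; TMM; 1 robust quasi-likelihood fit of all 18 libraries, 6 groups). P-values were adjusted over 15778 genes in each of 10 contrasts. SE is the log2 fold change over the square root of F. The fit was also run on simulated counts, with the same spread for every gene and changes only in well-counted genes of KO at 10 weeks. That run does not cover changes in low-count genes or libraries that stand apart. Alternatives were limma 3.58.1 (voom), DESeq2 1.42.0, RLE scaling, no filter and no mitochondrially encoded genes. Others were only the groups compared, a replicate block and each library left out. A further one, chosen after seeing the data, left out the 3 libraries that stood apart by Myl7, Myl4 and Sln.

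All members were named. Csrp3 was the check of the targeted gene, and of the other pathway genes up to 2 called per direction and age were named by smallest p. The members, lists and motifs were chosen with earlier results of these data known. No replicate was a copy of another in its group: chi-squared per degree of freedom between them ran from 7.19 to 63.3. Pair ratios used counts plus 0.5.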

Additional observations from a re-analysis of the deposited data

Results flagged for a closer look

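The difference between KO and WT changed with age, by a test of that difference in edgeR, for 7 genes in 8 comparisons. It moved by -3.06 on the log2 scale for Ogdhl, -0.57 for Dlst and -0.76 for Got1 from 3 to 6 weeks. From 6 to 10 weeks it moved by 0.68 for Pdhx, 2.68 for Ogdhl, 0.52 for Sdhb and -0.95 for Pdp1. From 3 to 10 weeks it moved by 0.51 for Pdk1. On leaving out 1 library at a time, the 3-to-6-week call for Ogdhl was lost in 1 of 12 fits (adjusted p = 0.0559). The Dlst call was lost in 9 of 12 (up to 0.119) and the Got1 call in 8 of 12 (up to 0.0855). All 3 were lost without the 3 libraries that stood apart (0.0683, 0.115 and 0.0703). The 6-to-10-week changes of Pdhx and Ogdhl stayed past the threshold in all 12 fits. The Pdp1 call was lost in 6 of 12 (adjusted p up to 0.0638), the Sdhb call in 7 of 12 (up to 0.0902) and the Pdk1 call in 4 of 12 (up to 0.0708).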

How the results depend on the processing

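Without 1 library at a time, the members called for KO against WT numbered 6 to 12 at 3 weeks (lowest without KO 3-week replicate 2), 21 to 23 at 6 weeks and 13 to 18 at 10 weeks. For the change of genotype effect they numbered 0 to 7 from 3 to 6 weeks (0 without WT 6-week replicate 3), 2 to 6 from 6 to 10 and 0 to 2 from 3 to 10. Within WT they numbered 2 to 4 and 1 to 5, and within KO 4 to 9 and 2 to 8, for the earlier and the later interval. Each of these fits holds fewer libraries for every gene, and its share of all genes called is not set beside the counts. The ranges are not read as results about the members. The log2 ratios ranged from -0.53 to -0.46 for Sucla2/Suclg2, -0.61 to -0.32 for Ogdhl/Ogdh, 0.61 to 0.71 for Pdk1/Pdk2, -0.03 to 0.25 for Pdp1/Pdp2, 0.19 to 0.25 for Mdh1/Mdh2, -0.43 to -0.34 for Got1/Got2 and 0.10 to 0.16 for Me1/Me3. Of those, Pdp1/Pdp2 changed sign without WT 10-week replicate 3 (-0.00375), KO 3-week replicate 3 (-0.0159) or KO 10-week replicate 2 (-0.0258).

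With DESeq2, 10 members were called for the change of genotype effect from 3 to 6 weeks in place of 3, 7 from 6 to 10 weeks in place of 4, 5 for WT from 3 to 6 weeks in place of 3, and 14 for KO from 6 to 10 weeks in place of 7. Without the low-count filter the counts were 5 for the first of these and 6 for WT from 6 to 10 weeks in place of 3. With only the groups compared they were 0 for the change from 3 to 10 weeks in place of 1, 6 for WT from 6 to 10 weeks and 3 for KO from 6 to 10 weeks. Without the 3 libraries that stood apart they were 0 for the change from 3 to 6 weeks. For KO from 3 to 6 weeks, 5 were called in place of 9. The share of all genes called in each of these fits is not set beside the counts, so they are not read as results about the members. The cause was not tested.

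Same-numbered libraries did not deviate together (correlation -0.22 to 0.11, over 0.1 in 2 of 45 pairs), so the numbers are not read as a pairing. With a replicate block 11, 25 and 17 members were called at 3, 6 and 10 weeks. The share of all genes called in that fit is not set beside these counts, so they are not read as results about the members. Another scaling moved the median of all genes by under 0.1. Ogdhl (4 to 88 counts in a library) and Pdk3 (21 to 114) are limited by depth.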
